A study of Mus musculus with 6 samples.

Results

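A set of 9 genes of the myogenic programme was followed in gastrocnemius muscle of mice without IRF4 (MI4KO) and mice with an excess of it (MI4OE). They are the transcription factors Pax7, Myf5, Myod1, Myog, Myf6 and Mef2c, the transcriptional coactivator Eya1, and the developmental myosin heavy chains Myh3 and Myh8. They were picked by symbol from the table of estimated read counts, which held all 9 among 24054 genes. The libraries were 3 from MI4KO and 3 from MI4OE mice, all male C57BL/6. MI4KO mice carried Irf4 flox/flox alleles with Myl1-cre, and MI4OE mice carried a Rosa26-LSL-Irf4 transgene with Myl1-cre, so both groups shared the Cre allele. Myl1 encodes an essential light chain of fast muscle fibres, and the line is described by the study as selective for skeletal muscle. The modification is thus directed at fibres, and whether satellite cells carried it was not tested. The labels give a high fat diet for every mouse, whereas the study describes MI4KO mice on regular chow, so the diet is in doubt. Age was not given in the labels. No muscle with normal IRF4 was analysed here, and each difference below lies between a knockout and an overexpressor. The study describes 3 muscles per group and the labels number the samples separately, though neither says outright that each came from its own mouse, and p-values measure only the spread between these samples.

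Skeletal muscle is built and repaired by a cascade of transcription factors. Pax7 marks satellite cells, the stem cells that lie beside each fibre. Myf5 and MyoD commit such cells to the muscle lineage, myogenin (Myog) drives their differentiation, and Myf6 (MRF4) is the myogenic factor of mature fibres. These 4 factors bind E-boxes, the sequence CANNTG, and work with MEF2 proteins such as Mef2c, while Eya1 is a transcriptional coactivator that belongs to the fast-fibre programme. Myh3 (embryonic) and Myh8 (perinatal) are the myosin heavy chains of developing muscle. They are replaced after birth by the adult chains and come back in regenerating fibres. IRF4 is a transcription factor that binds interferon-stimulated elements, which hold pairs of GAAA.

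The results below turn most on the developmental myosins, and Myog is the classic target of the E-box factors. Their upstream sequences are therefore shown. In the RefSeq annotation, Myh3 and Myh8 lie on chromosome 11 at either end of a run that holds Myh2, Myh1 and Myh4 between them. Each sequence gives the 250 bases before an annotated transcription start on GRCm38.p6, 5′ to 3′ on the plus strand, with E-boxes in capitals. The Myog window is chr1:134289754-134290003, the Myh3 window is chr11:67078050-67078299 and the Myh8 window is chr11:67276874-67277123.
Myog: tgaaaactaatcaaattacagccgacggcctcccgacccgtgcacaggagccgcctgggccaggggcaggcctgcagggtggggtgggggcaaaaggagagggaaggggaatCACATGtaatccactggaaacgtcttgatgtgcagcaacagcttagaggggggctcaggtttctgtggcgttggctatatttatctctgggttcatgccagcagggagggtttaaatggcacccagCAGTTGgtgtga
Myh3: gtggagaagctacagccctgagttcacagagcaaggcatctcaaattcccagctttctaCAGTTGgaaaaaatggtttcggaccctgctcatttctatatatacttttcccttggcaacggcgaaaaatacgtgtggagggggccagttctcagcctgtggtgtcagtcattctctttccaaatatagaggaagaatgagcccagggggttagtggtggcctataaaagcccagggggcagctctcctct
Myh8: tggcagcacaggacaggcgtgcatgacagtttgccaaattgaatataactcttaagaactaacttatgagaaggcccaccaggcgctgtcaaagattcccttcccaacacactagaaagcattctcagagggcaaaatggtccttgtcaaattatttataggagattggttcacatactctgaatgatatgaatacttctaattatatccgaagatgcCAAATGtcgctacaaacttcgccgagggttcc

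The Myog window held 2 E-boxes, beginning 138 and 12 bases before the start. The Myh3 window held 1, beginning 191 bases before the start, and the Myh8 window held 1, beginning 32 bases before it. The motif CANNTG reads the same on both strands, and 66.2% of 32851 RefSeq promoter windows of this length held at least 1. RefSeq windows were matched for 6 of the 9 genes, 8 windows in all, and 5 of these held an E-box. A pair of GAAA separated by 2 bases, searched on both strands, was in 0 of the 8 windows and in 2.98% of all windows. Such matches describe letters and not bound sites.

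Depth ranged from 18828605 to 29239585 estimated counts per library. The targeted gene followed the labels, with 6, 0 and 2 Irf4 counts in MI4KO and 2864, 10557 and 5911 in MI4OE replicates 1, 2 and 3. Ckm, the muscle creatine kinase, was at 31816 to 44001 CPM (counts scaled to library size with TMM factors) in MI4KO and 22473 to 31025 CPM in MI4OE. MI4OE replicate 1 stood apart from the rest. The summed level of 11 slow-fibre genes was 7912 CPM there, 766 in MI4OE replicate 3, and 47.6 to 152 in the other 4 libraries. Counts of list genes past the study's criterion are given below with and without it. Without it, 4.56% of all genes tested met that criterion.

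The order of the 9 genes was read per transcript length, as TPM. Mef2c was the most abundant, at 101 to 156 TPM over the 6 libraries, followed by Myf6 at 85.5 to 117 TPM. Their ranges overlapped, and both lay above every other member in every library. Myod1 came next at 7.54 to 21.95 TPM, then Eya1 at 2.89 to 8.62 TPM and Myog at 1.84 to 5.66 TPM. Myh8 was at 0.36 to 5.99 TPM, Myh3 at 0 to 2.60 TPM, Myf5 at 0.22 to 0.66 TPM and Pax7 at 0.10 to 0.64 TPM. From Myod1 down, each gene's range overlapped that of the next, so only the step from Myf6 to Myod1 separated neighbours. Myf6, the factor of mature fibres, was thus the most abundant of the 4 E-box factors in every library.

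Across the transcriptome, 3 of 12660 genes tested had an adjusted p under 0.05 by edgeR's quasi-likelihood test, or 0.0237%. Of the 9 genes, 8 passed the filter on low counts, Myh3 being the one left out, and 0 of the 8 had an adjusted p under 0.05. By the study's criterion of 1.5-fold with an unadjusted p under 0.05, 1 of the 8 differed, Myh8, against 6.64% of all genes tested. The groups did not overlap in 1 of the 8, Myf6, against 12.9% of all genes tested. Counts of 1 among 8 genes are read as no result about these genes. Among the 8, 5 were higher and 3 lower in MI4OE. Their median log2 fold change was 0.16, where the median of all genes tested was near 0. Without MI4OE replicate 1 they were 4 higher and 4 lower, with a median of 0.02. A p that misses the threshold does not show equal levels, and the intervals below give the range of differences left.

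**Figure D1:**
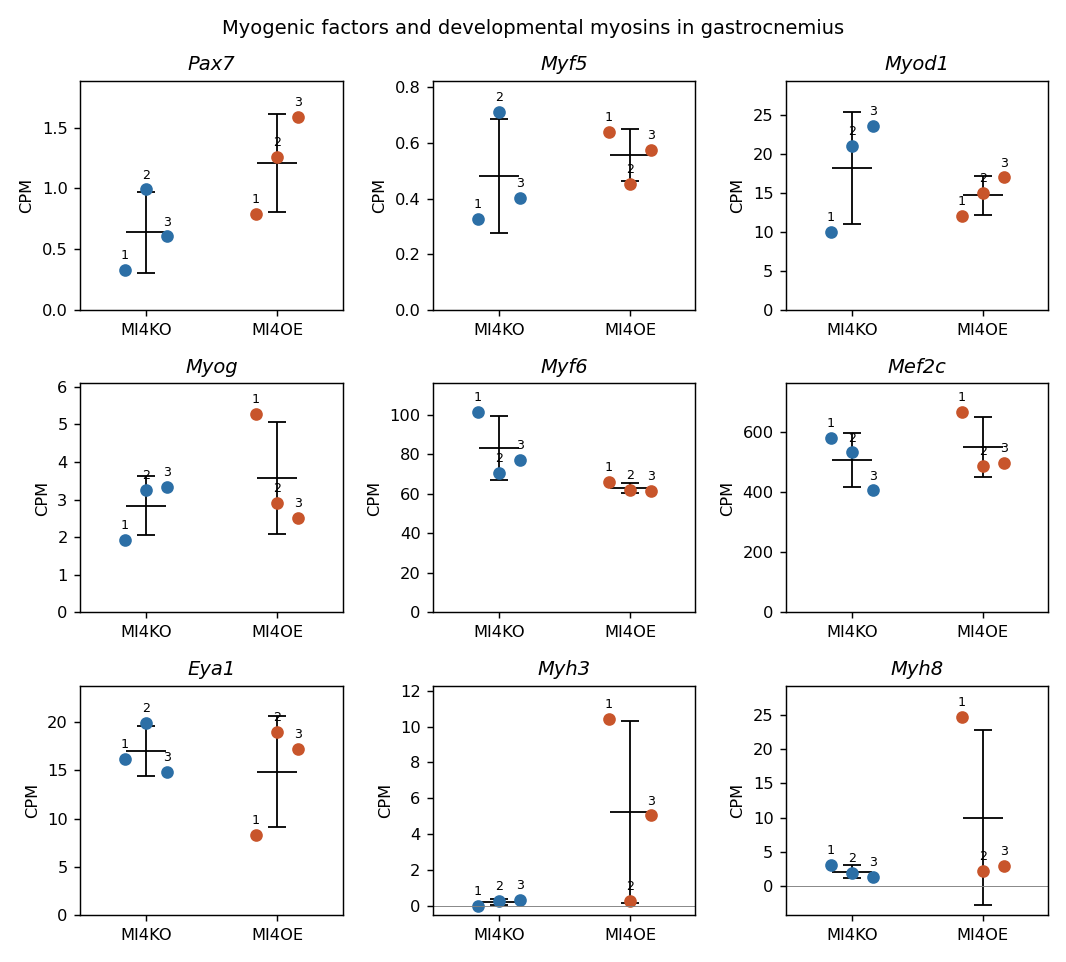
Level of each gene in each library, in CPM scaled with TMM (vertical axis), for 3 MI4KO and 3 MI4OE libraries. Points are libraries with their replicate numbers, and bars give the mean ± SD. Myf6 is the gene whose groups do not overlap, while the spread of Myh3 and Myh8 lies almost wholly within MI4OE.

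Pax7, the satellite cell factor, measured 0.327, 0.991 and 0.605 CPM in replicates 1, 2 and 3 of MI4KO and 0.787, 1.26 and 1.59 CPM in those of MI4OE. The groups overlapped, MI4OE replicate 1 lying below MI4KO replicate 2. Its log2 fold change was 0.92 (SE 0.49, 95% interval -0.21 to 2.05, adjusted p = 0.728). Without MI4KO replicate 2 it was 1.35 (edgeR, adjusted p = 0.683, unadjusted 0.039), and the groups did not overlap. These levels rest on 8, 25 and 18 counts in MI4KO and 16, 36 and 36 in MI4OE. The lowest, 8 counts, has an exact Poisson interval of 3.45 to 15.8 and the highest, 36, one of 25.2 to 49.8, which cover counting error only. In bulk tissue, fewer cells of a type and less RNA per cell cannot be told apart.

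Myf5, which acts early in commitment, was the other sparse factor, with 8, 18 and 12 counts in MI4KO and 13 in each MI4OE library. Its mean was 0.481 ± 0.204 CPM in MI4KO against 0.556 ± 0.0939 CPM in MI4OE (SD, n = 3 each), a log2 fold change of 0.20 (SE 0.45, adjusted p = 0.942). The MI4OE values all lay within the range of MI4KO.

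Myod1, the other commitment factor, measured 10.03, 21.1 and 23.6 CPM in the MI4KO libraries and 12.1, 15.03 and 17.0 CPM in the MI4OE libraries. MI4KO replicate 1 was the lowest of the 6, and the other MI4KO libraries were the highest. The log2 fold change was -0.31 (SE 0.32, adjusted p = 0.864). Without MI4KO replicate 1 it was -0.61 (edgeR, adjusted p = 0.771, unadjusted 0.0218). Without MI4KO replicate 3 it was -0.09. The size of the Myod1 difference thus moved most with these MI4KO libraries.

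Myog, the differentiation factor, measured 1.92, 3.25 and 3.32 CPM in the MI4KO libraries and 5.26, 2.90 and 2.52 CPM in the MI4OE libraries. MI4OE replicate 1 was the highest of the 6 libraries, and the other MI4OE libraries lay inside the MI4KO range. The log2 fold change was 0.32 (SE 0.36, adjusted p = 0.879). It turned to -0.07 without MI4OE replicate 1.

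Myf6, the factor of mature fibres, measured 101, 70.6 and 77.1 CPM in the MI4KO libraries and 65.9, 61.9 and 61.6 CPM in the MI4OE libraries. Every MI4KO library lay above every MI4OE library, as for Ckm. Among 8 defining muscle genes the median was -0.25 and 7 had negative values, 0 past the study's criterion and Ckm (-0.40, adjusted p = 0.791) the 1 whose groups did not overlap. Without MI4OE replicate 1, 6 of the 8 had negative values, the median was -0.19 and 0 met the criterion. MI4KO replicate 1 was the highest library for Ckm, Acta1, Mylpf and Tnnt3 as it was for Myf6. The part of this in the Myf6 value was not tested. In CPM the MI4OE libraries were nearly level, with a coefficient of variation of 3.81% against 19.6% in MI4KO. The mean was 83.1 ± 16.2 CPM in MI4KO against 63.1 ± 2.40 CPM in MI4OE (SD, n = 3 each). The log2 fold change of -0.40, SE 0.18 and 95% interval -0.81 to 0.02, corresponds to a level 1.32-fold higher in MI4KO. The unadjusted p was 0.0602 and the adjusted p 0.684 by edgeR, so Myf6 did not pass. A two-sided exact permutation test over the 6 libraries gave p = 0.1, the smallest that 3 against 3 allows. On the TPM scale the groups did not overlap either, with 117, 113 and 107 TPM in MI4KO and 85.5, 94.2 and 90.9 TPM in MI4OE. In TPM the spread was alike, at 112 ± 5.39 in MI4KO and 90.2 ± 4.44 in MI4OE (SD, n = 3 each). MI4KO replicate 1 had the smallest TMM factor, 0.864. Without MI4KO replicate 1, the highest library, the log2 fold change was -0.23. Myf6 and Myf5 are neighbours on chromosome 10, and no 50-base stretch of either transcript was shared with another gene.

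Mef2c, the partner of the E-box factors, measured 581, 531 and 405 CPM in the MI4KO libraries and 666, 487 and 497 CPM in the MI4OE libraries. MI4OE replicate 1 was highest and MI4KO replicate 3 lowest, with the other 4 between them. The log2 fold change was 0.12 (SE 0.22, 95% interval -0.40 to 0.64, adjusted p = 0.930). Mef2c was read as a pair of transcripts, and NM_025282 took the larger share, 56.5% to 63.3% of the gene's TPM in MI4KO and 54.1% to 69.7% in MI4OE. The shares of the groups overlapped.

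Eya1, the transcriptional coactivator, measured 16.2, 19.9 and 14.9 CPM in the MI4KO libraries and 8.26, 19.0 and 17.2 CPM in the MI4OE libraries. MI4OE replicate 1 was the lowest library, and the other 2 MI4OE libraries lay within the MI4KO range. The log2 fold change was -0.19 (SE 0.31, adjusted p = 0.915), and it turned to 0.09 without MI4OE replicate 1. Its longer transcript, NM_010164, took 51.7% to 60.7% of the gene's TPM in MI4KO and 55.0% to 68.2% in MI4OE, again with overlap.

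**Figure D2:**
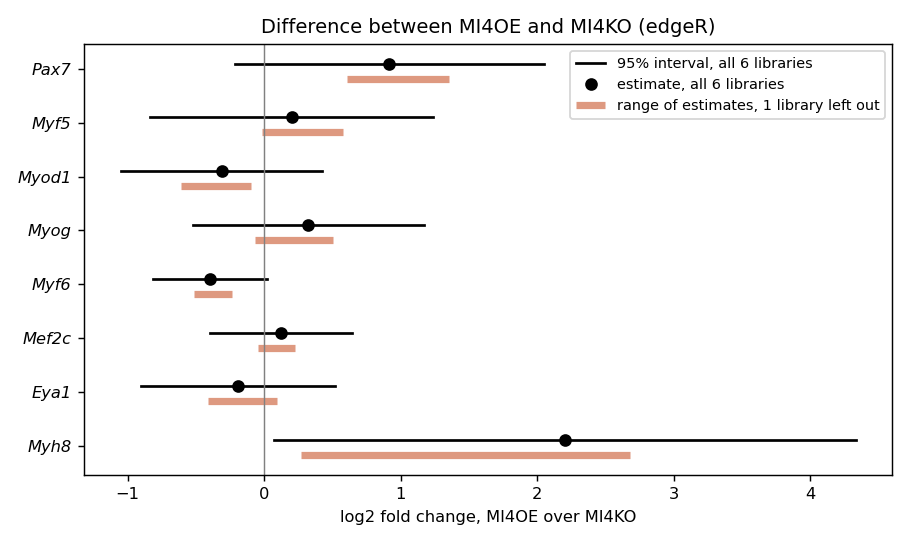
Log2 fold change of MI4OE over MI4KO (horizontal axis) for the 8 genes tested, with the 95% interval from edgeR's quasi-likelihood fit (black) and the range of the estimates when each library was left out in turn (orange). Myog, Myf5, Mef2c and Eya1 cross 0 within that range, and the estimate of Myh8 falls to 0.27 at its lower end.

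Myh8, the perinatal myosin, measured 3.11, 1.98 and 1.38 CPM in the MI4KO libraries and 24.7, 2.20 and 3.003 CPM in the MI4OE libraries. One library carried the excess, MI4OE replicate 1, and the other MI4OE libraries lay within the MI4KO range. The log2 fold change was 2.20 (SE 0.91, 95% interval 0.07 to 4.33), with an adjusted p = 0.639 by edgeR (unadjusted 0.0441). The two-sided exact permutation test over libraries gave p = 0.3. Without MI4OE replicate 1 it was 0.27, with an unadjusted p of 0.523. Leaving out any 1 MI4KO library also ended the call at the study's criterion, at 1.94 to 2.55 on the log2 scale. DESeq2 gave Myh8 no p-value.

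Myh3, the embryonic myosin, had 0, 7.42 and 9.07 estimated counts in MI4KO and 212, 7.34 and 114 in MI4OE. That is 0, 0.277 and 0.302 CPM in MI4KO and 10.4, 0.245 and 5.03 CPM in MI4OE. MI4OE replicates 1 and 3 were above every other library, whereas MI4OE replicate 2 lay within the MI4KO range. The count of 0 in MI4KO replicate 1 allows up to 0.123 CPM, taking 3 counts as the floor. Myh3 was left out by the filter, which asks for enough counts in 3 libraries. When no filter was applied, its log2 fold change was 4.65 (SE 1.16), with an adjusted p = 0.406 by edgeR (unadjusted 0.00254). The exact permutation test on its CPM gave p = 0.3. With no filter it was 3.69 without MI4OE replicate 1 (adjusted p = 0.518 by edgeR) and 4.67 without MI4OE replicate 3 (adjusted p = 0.669 by edgeR), where 1 MI4OE library in each case still held the excess.

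Part of the sequence of Myh8 and Myh3 is shared with other myosin genes. Of the 6100 windows of 50 bases, the read length, in the longest Myh8 transcript of GENCODE M21, 21.4% occurred unchanged in another myosin heavy chain. The share was 11.8% with Myh2, 9.56% with Myh1, 9.31% with Myh4 and 4.79% with Myh13. For Myh3 it was 4.81% of 5982 windows, so Myh3 is the better resolved of the pair. For the other 7 members it was 0%. Per length, Myh4 was at 20996 to 29106 TPM in MI4KO against 0.36 to 0.68 TPM for Myh8. In MI4OE replicate 1, which carried the Myh8 excess, Myh2 was at 1820 TPM and Myh1 at 2520 TPM. How far the Myh8 counts of any library, low or raised, come from reads of its neighbours was not tested.

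The developmental myosins were set beside the adult ones per transcript length. Together the 10 sarcomeric myosin heavy chains were dominated by Myh4, the chain of fast glycolytic fibres, which took 94.96% to 99.5% of their summed TPM in MI4KO and 67.5%, 98.7% and 91.8% in MI4OE replicates 1, 2 and 3. Myh8 took 0.0410% in MI4OE replicate 1 and at most 0.00304% in each other library, and Myh3 took 0.0178% there and at most 0.00519% elsewhere. Even where they were highest, both were trace components of the myosin pool.

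MI4OE replicates 1 and 3, the libraries with the most Myh3, also had the most Myh7, Myh2 and Myh1. In CPM, Myh8 was raised in MI4OE replicate 1 and lay within the MI4KO range in replicate 3. Myh7, the slow chain, was at 395 TPM in MI4OE replicate 1, 45.4 TPM in MI4OE replicate 3 and 0.05 to 6.23 TPM in the other 4. Myh2, the chain of fast oxidative fibres, was at 1820 TPM in MI4OE replicate 1, 505 TPM in MI4OE replicate 3 and 0.75 to 267 TPM elsewhere. Myh13, an extraocular chain that lies next to Myh8, was at 1.98 TPM in MI4OE replicate 1 and 0.07 to 0.36 TPM elsewhere. The slow-fibre list had all 11 of its genes higher in MI4OE, 9 of them at 1.5-fold and an unadjusted p under 0.05, with 0 past the adjusted threshold. The 5 with the largest values were Tnni1 (6.87), Tnnt1 (6.55) and Tnnc1 (6.30), the slow troponin subunits, with Myh7 (6.35) and the slow light chain Myl2 (6.20). Without MI4OE replicate 1, all 11 were still higher but 0 met the criterion, and the median log2 fold change was 1.83 in place of 5.14. The summed level in MI4OE replicate 2, 58.2 CPM, lay within the MI4KO range. The part of fibre content in the Myh3 and Myh8 values was not tested.

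**Figure D3:**
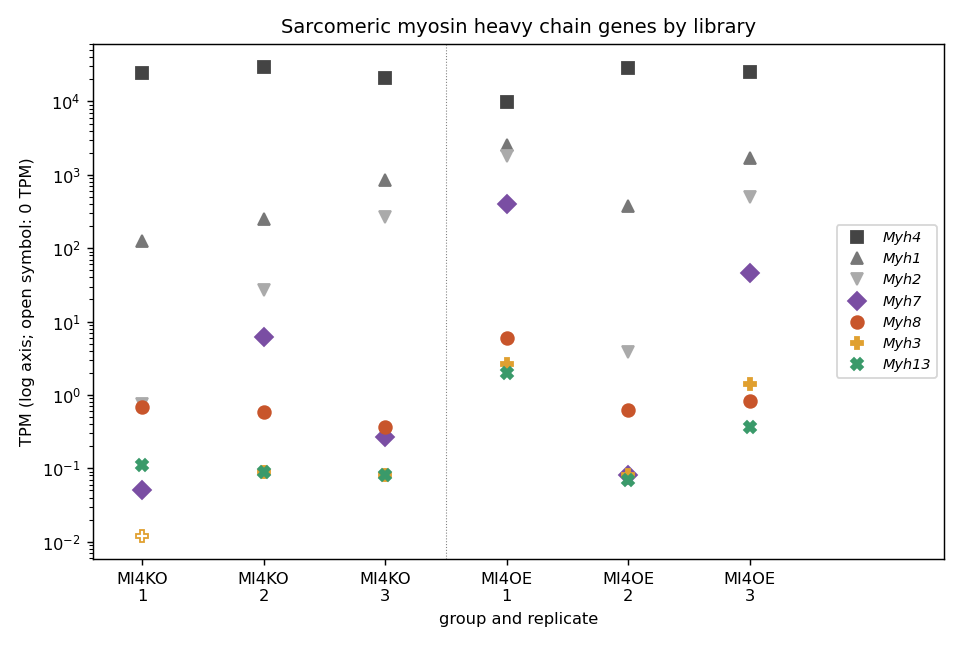
TPM of 7 sarcomeric myosin heavy chain genes (log axis) in each library, with MI4KO left and MI4OE right of the dotted line; an open symbol marks 0 TPM. Of the 7 genes, all but Myh4 are highest in MI4OE replicate 1, where Myh4 is lowest at 9850 TPM.

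Other genes of the pathway were read from lists. Of 28 other myogenic regulators, 24 were tested, 16 higher and 8 lower in MI4OE. Their median was 0.12 on the log2 scale, and 0.17 without MI4OE replicate 1. At the study's criterion 1 was higher and 0 lower, and 0 passed the adjusted threshold. The gene was Eya2, a relative of Eya1, at 0.696, 0.991 and 1.28 CPM in the MI4KO libraries and at 2.51, 1.54 and 1.77 CPM in the MI4OE libraries. Its log2 fold change was 0.96 (SE 0.36, adjusted p = 0.595). Without MI4OE replicate 1 it was 0.73, and 0 of the regulators met the criterion. Vgll2, a TEAD cofactor of muscle, was at 163 CPM in MI4OE replicate 1, 57.4 CPM in MI4OE replicate 3 and 18.3 to 41.4 CPM in the other 4, with an adjusted p of 0.685. Twist1, an inhibitor of myogenic factors, had the most negative value, -1.19, with an adjusted p of 0.683.

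Of 16 satellite cell genes, 14 were tested, 9 higher and 5 lower in MI4OE, with a median of 0.39. Without MI4OE replicate 1, 9 were again higher and 5 lower, with a median of 0.09. Notch1 and Heyl, a receptor and a target of the pathway that holds satellite cells quiescent, were the 2 past the study's criterion, and 0 passed the adjusted threshold. Notch1 measured 6.30, 8.12 and 8.63 CPM in the MI4KO libraries and 16.9, 10.07 and 12.1 CPM in the MI4OE libraries, with a log2 fold change of 0.76 (adjusted p = 0.546). Heyl measured 1.06, 5.23 and 3.90 CPM in the MI4KO libraries and 9.89, 6.68 and 9.14 CPM in the MI4OE libraries, with a log2 fold change of 1.33 (adjusted p = 0.585). Neither group of either gene overlapped the other. Without MI4OE replicate 1 the values were 0.52 for Notch1 and 1.21 for Heyl, and 0 of the satellite cell genes met the criterion. Cdh15 (M-cadherin), which anchors satellite cells to fibres, had a log2 fold change of -0.06, and Itga7, a laminin receptor of muscle cells, one of 0.05.

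Notch1 and Heyl are also used by vessels, so vessel and connective tissue genes are given beside them. The summed level of 8 endothelial genes was 142 to 242 CPM in MI4KO and 222 to 511 CPM in MI4OE, with 5 of the 8 past the study's criterion, all higher, and 0 past the adjusted threshold. The 5 were the receptors Kdr (1.21), Tie1 (1.002) and Tek (0.79), the cadherin Cdh5 (1.04) and Egfl7 (0.74), given as log2 fold changes. The endothelial sums of the groups overlapped, and 4 of the 8 genes had groups that did not overlap. When MI4OE replicate 1 was left out, 2 of the 8 met the criterion and the list median was 0.51 in place of 0.76. Then 4 of the 8 did not overlap, where 20.5% of all genes did not, against 12.9% with all libraries. The summed level of 8 fibroblast genes was 232 to 372 CPM and 401 to 535 CPM, with 7 of the 8 past the criterion, all higher, and 0 past the adjusted threshold. The 5 with the largest log2 fold changes were the receptors Pdgfrb (1.07) and Pdgfra (0.74), the proteoglycan Dcn (0.81) and the collagens Col1a1 (0.77) and Col1a2 (0.76). When MI4OE replicate 1 was left out, 5 of the 8 met it, with a list median of 0.71 in place of 0.75. In both fits 7 of the 8 fibroblast genes had groups that did not overlap. The 8 Schwann cell genes summed to 30.8 to 136 CPM in MI4KO and 86.7 to 252 CPM in MI4OE. All 8 were higher in MI4OE, with a list median of 1.201, but 0 met the criterion and the groups overlapped in each. When MI4OE replicate 1 was left out, all 8 were again higher, with a median of 1.392, and 1 met the criterion. Macrophage genes were at 39.6 to 70.2 CPM in MI4KO and 29.5 to 60.7 CPM in MI4OE over the 7 of 8 listed genes in the table, with 0 past it in either fit. No listed marker of these 4 types was at 0 in every library. The part of these cells in the Notch1, Heyl and Pax7 values was not tested.

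The list for fusion and immature fibres held 14 genes in the table, of which 12 were tested, 7 higher and 5 lower, with a median of 0.18. Without MI4OE replicate 1, 6 were higher and 6 lower, and the median turned to -0.03. The fusion genes Tmem8c (myomaker) and Gm7325 (myomixer) were left out by the filter, at no more than 0.148 CPM in any library. Actc1, the actin of embryonic muscle and heart, ranged over 31.5 to 56.5 CPM in MI4KO and 33.2 to 82.5 CPM in MI4OE. Myl4, the embryonic light chain, was at 6.38 to 10.8 CPM and 3.67 to 10.3 CPM, with a log2 fold change of -0.37. Nes (nestin), an intermediate filament of immature and synaptic muscle, was the 1 gene past the study's criterion, with a log2 fold change of 0.80 (adjusted p = 0.612). Without MI4OE replicate 1, where Nes was highest, it was 0.49 and did not meet the criterion, while Myl6b, a myosin light chain, met it in the lower direction (-0.61, adjusted p = 0.882 by edgeR). Of 10 cell cycle genes 3 were tested, and all 10 summed to 3.29 to 4.13 CPM in MI4KO and 3.43 to 5.46 CPM in MI4OE. Rrm2 was past the study's criterion there, at 0.198 to 0.302 CPM and 0.454 to 0.886 CPM, with an adjusted p of 0.542, and did not meet it without MI4OE replicate 1, where the log2 fold change was 1.27 in place of 1.49.

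Myogenin and MyoD also act on acetylcholine receptor genes, which rise with denervation. Of 13 denervation and synaptic genes 11 were tested, with 3 higher and 1 lower at the study's criterion and 0 past the adjusted threshold. Chrnd, the receptor's delta subunit, measured 0.901, 0.594 and 0.974 CPM in the MI4KO libraries and 4.13, 3.39 and 3.31 CPM in the MI4OE libraries. Its log2 fold change was 2.12 (SE 0.30, adjusted p = 0.216), and the MI4OE libraries all lay above the MI4KO ones. Chrna1, the alpha subunit, measured 13.9, 12.0 and 7.59 CPM in the MI4KO libraries and 17.4, 22.7 and 17.4 CPM in the MI4OE libraries, with a log2 fold change of 0.78 (adjusted p = 0.546). Sln, an inhibitor of the calcium pump, had a log2 fold change of 1.68 and Nnat, a small membrane protein, one of -4.83, with adjusted p of 0.612 and 0.433. Chrnd (2.01), Chrna1 (0.84) and Nnat (-4.51) still met the criterion without MI4OE replicate 1, and Sln (0.98) did not. Chrng, the fetal gamma subunit, was too low to be tested, at 0.0409, 0.0396 and 0.0672 CPM in MI4KO against 0.0984, 0.210 and 0.353 CPM in MI4OE, groups that did not overlap. All MI4KO values and that of MI4OE replicate 1 lay under the floor of 3 counts. Chrnb1 (beta subunit) and Musk (the synaptic kinase) were at -0.05 and -0.57 on the log2 scale, and at 0.06 and -0.18 without MI4OE replicate 1. Runx1, a denervation marker, had a log2 fold change of 0.01. Myog itself, given above, did not share the separation of the groups seen in Chrnd, and a link between them was not tested.

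**Figure D4:**
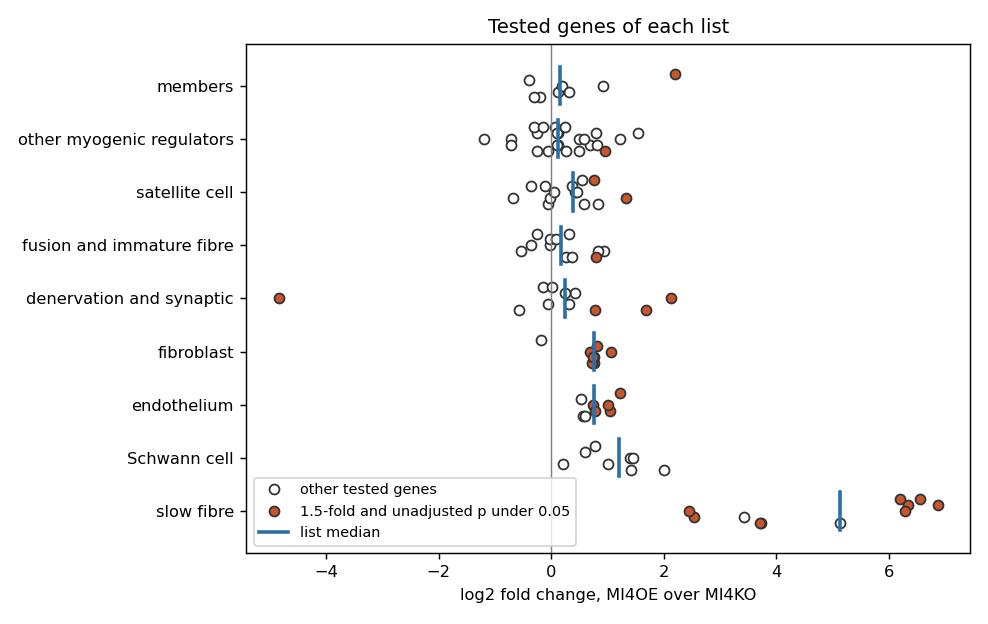
Log2 fold change of MI4OE over MI4KO (horizontal axis) for each tested gene of 9 lists. Filled points passed 1.5-fold with an unadjusted p under 0.05, and the bar is the list median. Medians of the myogenic lists lie between 0.12 and 0.39, the fibroblast median at 0.75 and the slow-fibre median at 5.14.

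Likeness of pattern was described as Pearson's r of log2 CPM over the 6 libraries, for genes outside the 9. With so many genes and so few libraries high values arise freely, so no p is given. The profile of Myh8 was closest to Lrrc39 (r = 0.998), Npepps (r = 0.996) and Gm17821 (r = 0.994), each highest in MI4OE replicate 1. For Eya1 the closest were Hbs1l, Ppp6r2 and Snx6, each lowest in MI4OE replicate 1. For Pax7 they were Tbx2, Agtr1a and Inpp5b, and for Myf6 Dpy30, Rdh14 and Xbp1, each highest in MI4KO replicate 1. For Myog they were Sytl4, A230072C01Rik and Ica1, and for Myod1 Cyp39a1, Ppp1r9a and H2-Q5. For Myf5 they were Dnajc28, Pik3c2a and Cnot6, and for Mef2c BC037704, Atp13a5 and Rcan3. Over all 8 genes r lay between 0.972 and 0.999.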

How the data were processed

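Gastrocnemius RNA was sequenced as single 50-base reads from stranded mRNA libraries. The authors, according to the methods and labels, mapped reads to a UCSC transcript set with Bowtie2 2.1.0 and quantified them with RSEM 1.2.15. The genome build is not given in the sources used here. The deposited expected counts are RSEM estimates, not normalized, while deposited TPM corrects them for transcript length. Tables holding the authors' fold changes and p-values were left aside. Counts in the pooled table matched those of each library's file in all 24054 genes (within 0.005 counts).

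After rounding of the expected counts, edgeR 4.0.16 (R 4.3.3) was run (filterByExpr, minimum count 10 and total 15, TMM, quasi-likelihood test, Benjamini-Hochberg over 12660 genes, default settings). Groups came from the genotype label, 3 libraries each, and replicate numbers follow accession order. The threshold was an adjusted p of 0.05, and the study's criterion 1.5-fold with an unadjusted p of 0.05. Intervals of fold changes use the fit's standard errors. Depth was 18828605 to 29239585 counts per library. Other settings tried were the exact test of edgeR, DESeq2 1.42.0, limma 3.58.1 with a pseudocount of 1 or 0.1 on TPM, RLE factors, totals alone, TMM computed after dropping the top 100 genes, filtering at a mean CPM of 1 or not at all, and omission of each library. Myh3 is given from the fit that had no filter. The fits were tested on simulated data. All 9 genes are named, with at most 5 genes per list and direction past the study's criterion by size of change, list genes given as levels or extremes, and the 3 genes of closest pattern to a member. The genes and lists were chosen with earlier results of these data known, and Vgll2, Twist1 and the myosins beside Myh8 were picked with values in view.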

Additional observations from a re-analysis of the deposited data

How the results depend on the processing

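In each of the 15 alternatives 0 of the 9 genes had an adjusted p under 0.05, among 7 to 9 that were tested. Over all genes that count was 3, and it was 111 with DESeq2, 108 with edgeR's exact test and 1 to 4 when a library was left out. By the study's criterion, the count of these genes was 2 with no filter and 2 with a mean CPM of at least 1, where Myh3 joined Myh8, and 0 with limma at either TPM pseudocount, 1 or 0.1, where 3.70% and 5.81% of all genes met it. It ran from 0 to 2 when a library was left out, with 0 without MI4OE replicate 1, and the genes changed. Myh8 met it only when MI4OE replicate 2 or 3 was the library left out. Myh3 met it with any MI4KO library or MI4OE replicate 2 left out, having passed the filter through MI4OE replicates 1 and 3 alone. It was joined by Myod1 without MI4KO replicate 1, by Pax7 without MI4KO replicate 2 and by Myh8 without MI4OE replicate 2. With a library left out, the share of all genes ran from 4.56% to 10.2%. DESeq2 gave no count, since Myh8 had no p-value there. The number whose groups did not overlap ran from 1 to 3 when a library was left out, where 17.7% to 28% of all genes did not overlap, against 12.9% with all 6. Signs turned for 4 genes. With a library left out, the log2 fold change of Myog ran from -0.066 (without MI4OE replicate 1) to 0.51, that of Myf5 from -0.013 (without MI4KO replicate 1) to 0.58, that of Mef2c from -0.044 (without MI4OE replicate 1; -0.03 without MI4KO replicate 3) to 0.22, and that of Eya1 from -0.41 to 0.091 (without MI4OE replicate 1). The cause was not tested. Myf6, Myod1, Pax7 and Myh8 kept their signs in every alternative that tested them, with log2 fold changes from -0.51 to -0.23, -0.61 to -0.09, 0.24 to 1.35 and 0.27 to 2.68. No paired analysis was possible because the labels carry no replicate number that links an MI4KO mouse to an MI4OE mouse. Low counts limit Pax7 and Myf5, at 8 to 36 per library, and Myh3, under 10 in 4 of 6. The lists without MI4OE replicate 1, and Myh3 with no filter and without MI4OE replicate 1 or 3, were chosen after seeing the data.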
